A study of Apis mellifera with 9 samples.

Results

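A set of 377 genomic regions carried a peak of the histone mark H3K27me3 in the ovaries of all 4 worker honeybee samples and in neither of the 2 queen samples. The study used ChIP-seq, the sequencing of DNA recovered with an antibody to the mark, on ovaries of Apis mellifera females, with 2 samples from each of 3 groups. Queen-less workers came from colonies without a queen for 2 to 4 weeks and had an ovary score of 3, while queen-right workers came from a hive with a laying queen and had an ovary score of 0. Queens were egg layers of about 12 months, with no ovary score in the labels. Immunoprecipitations of each sample were pooled before sequencing, and the labels do not give the number of ovaries per sample or the age of the workers. Caste therefore cannot be told apart from age, from the colony or from the input sample of each group.

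The 377 regions were chosen by the peak calls themselves. Merging all peaks of the 6 deposited lists that shared 1 base or more gave 53589 regions, each called in those lists that had a peak in it. The regions described here, called worker-not-queen regions below, were 0.704% of all regions. Since the calls defined the set, its size and the absence of queen peaks are a description and were not tested. Each peak has a score from the authors' peak caller, and scores rank peaks only within their own list. Read depth is not given in the lists. A deeper library can give more covered bases at the same threshold, so a missing peak is a missing call and not a measured absence of the mark.

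H3K27me3 is placed by the Polycomb repressive complex PRC2 and is found over genes that are held silent, often in broad domains. Queens and workers are both female and develop differently according to larval feeding. The worker ovary stays small and mostly inactive while a queen is present and can become active once she is lost. The mark has been studied in this tissue as a candidate means of holding genes silent in the inactive ovary. The names of genes at the regions cannot be given, since the gene table at hand uses another assembly and 0 of its chromosome names matched a scaffold of the lists.

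Nearly all regions called in all 4 worker lists were also called in queens. Of 26417 regions called in all 4 worker lists, 24847 (94.1%) were called in both queens, 967 (3.66%) in queen 1 alone, 226 (0.856%) in queen 2 alone and 377 (1.43%) in neither queen. The opposite pattern, a peak in both queens and in no worker, was found at 141 regions, or 0.263% of all regions. It asks for calls in 2 lists and not in 4, so the 2 counts are not alike. For the other pairs of lists, the regions called in just those 2 numbered from 26 to 1293. The set was small in sequence as well: the worker-not-queen regions spanned 0.274 Mb, which is 0.294% of the bases in all regions. Its size changed when a list was left out. With a list left out and the remaining lists merged again, the count was 1388 without queen-less worker 1, 889 without queen-right worker 2, 1353 without queen 1 and 605 without queen 2. It was 461 without queen-less worker 2 and 522 without queen-right worker 1. A rule over fewer lists is easier to meet.

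The 2 queens were not the pair most often lacking a region that the other 4 lists had. In all, 4726 regions were called in exactly 4 lists, and any of 15 pairs of lists can be the pair without a call. The queens were the pair at 377 of them (7.98%), the fifth highest count of the 15, where the median over pairs was 143. Higher counts were found for the 2 queen-right workers (1384 regions), queen-less worker 1 with queen 2 (717), queen-right worker 2 with queen 2 (654) and queen-less worker 1 with queen-right worker 2 (507). The last 3 of these pairs each join samples of different groups. The lowest counts went with the list that covered most sequence: the 5 pairs with queen-less worker 2 (78.0 Mb) gave 4 to 47 regions, and the 10 pairs without it gave 58 to 1384. This order depended on the scaling. With each list reduced to its top-scoring peaks of equal covered bases, where queen-less worker 2 kept 18270 of its 50576 peaks, its 5 pairs gave 118 to 1772 regions. The queens then had 181, and the 4 pairs that stood above them had 134 for the queen-right workers, 51 for queen-less worker 1 with queen 2, 7 for queen-right worker 2 with queen 2 and 28 for queen-less worker 1 with queen-right worker 2. Covered bases were 59.2 Mb in queen-less worker 1, 64.8 and 48.8 Mb in queen-right workers 1 and 2, and 63.1 and 53.5 Mb in queens 1 and 2.

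**Figure D1:**
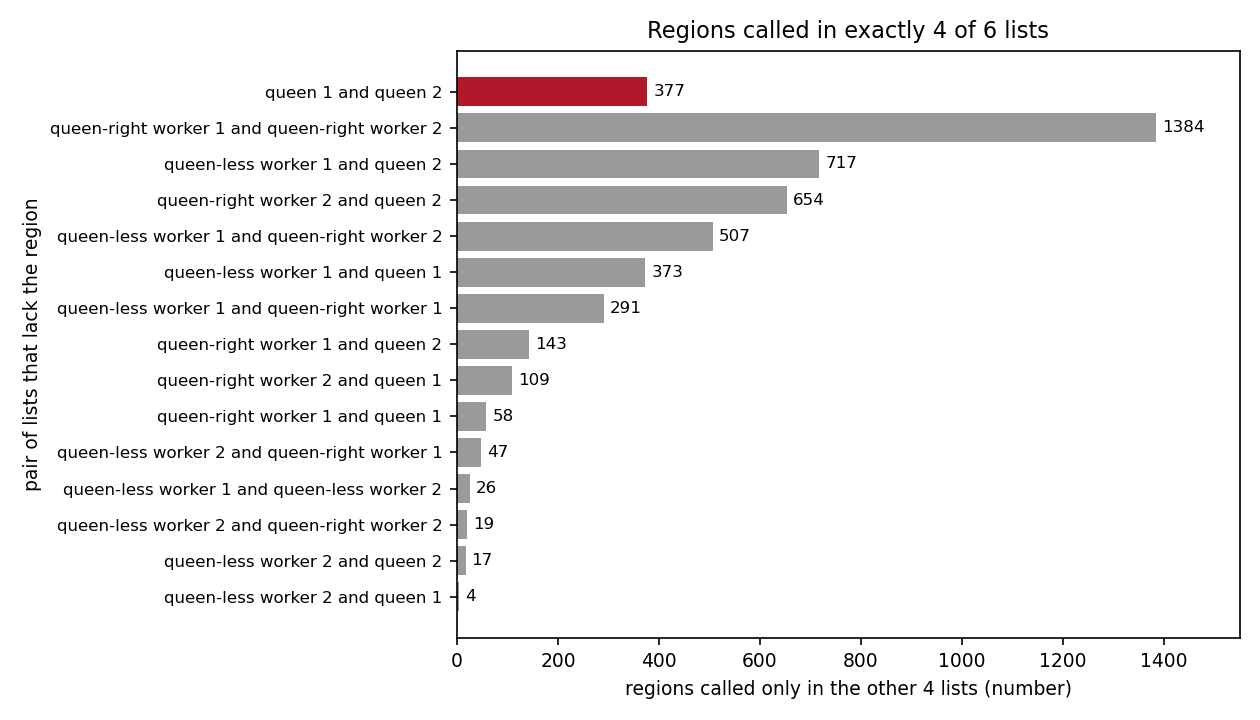
Number of regions called in exactly 4 lists (x axis) for each of the 15 pairs of lists that lack the region (y axis), with the 2 queens in red and the other pairs in grey. The queens lack 377 regions, fewer than the 1384 lacked by the 2 queen-right workers and fewer than 3 pairs that join different groups.

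The regions were narrow. Their width ran from 189 to 3507 bases with a median of 554, against a median of 1681 bases for regions called in all 6 lists and 251 bases for regions called in a single list. There were 175 regions (46.4%) under 500 bases, 114 from 500 to under 1000 bases, 79 from 1000 to under 2000 bases and 9 of 2000 bases or more. The median was not particular to the queens: across the 8 other pairs that lacked at least 100 regions it ranged from 431 to 722 bases.

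The 4 worker lists overlapped in most of the regions, but seldom over most of the width. Each worker list had a single peak in 348 of the 377 regions (92.3%), and in 353 regions (93.6%) at least 1 base lay under peaks of all 4 lists. This shared core had a median length of 156 bases, and its median share of the region's width was 33.3%. In 111 regions (29.4%) it took up 50% of the width or more. In 24 regions the 4 lists had no base in common, so that the region was joined only through partly overlapping peaks. Among the 5 widest regions, 2 were of this joined kind. The widest, on scaffold NW_003377936.1 from 7893 to 11399, was covered over 99.4% of its 3507 bases in queen-less worker 1 and 4.28% in queen-less worker 2, against 4.51% and 5.79% in queen-right workers 1 and 2. Its 149 shared bases were 4.25% of its width. The second, on NW_003378033.1 from 411565 to 414626, had 0 bases under all 4 lists. The third, on NW_003377943.1 from 568729 to 571594, had the longest shared core of the 5 widest, 576 bases, and coverage of 25.7% and 78.0% in the queen-less workers, against 64.7% and 52.1% in the queen-right workers. The other 2 of these 5, on NW_003378125.1 from 267649 to 270480 and on NW_003378014.1 from 191880 to 194522, had 157 and 0 shared bases.

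**Figure D2:**
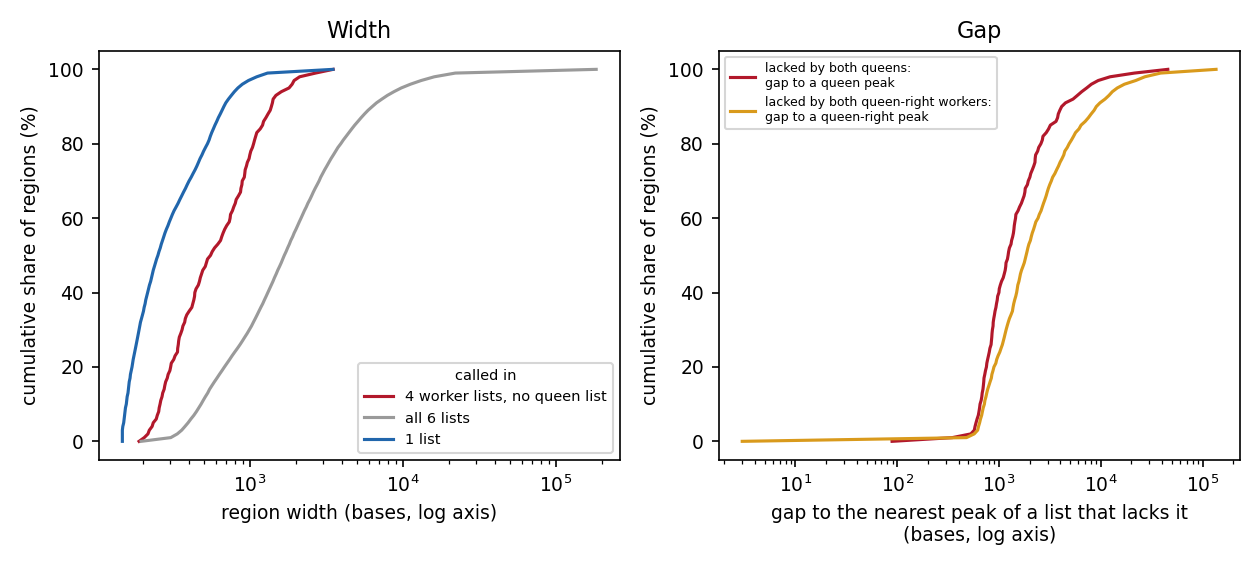
Left, cumulative share of regions (y axis, percent) by width (x axis, bases, log scale) for regions called in all 4 worker and no queen lists (red), in all 6 lists (grey) and in 1 list (blue), with medians of 554, 1681 and 251 bases. Right, cumulative share by the gap to the nearest peak of the pair of lists that lack the region (log scale), with medians of 1228 bases for queens (red) and 1846 bases for queen-right workers (gold).

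The median score rank of the regions was low in every worker list. The percentile of a region is the share of its own list's peaks that score below its highest peak, with ties counted at their middle. Its median over the 377 regions was 28.4 and 30.4 in queen-less workers 1 and 2, against 38.0 and 36.1 in queen-right workers 1 and 2. Over the regions called in all 6 lists the medians were 64.7 and 71.4 in the queen-less workers, against 67.7 and 65.7 in the queen-right workers. Those regions are wider and can hold more peaks of a list, of which the highest counts, so their medians can be raised by width. How much of the difference this makes was not tested. The lowest percentile over the 4 worker lists had a median of 12.1. For the regions called in all 6 lists, the lowest was taken over all 6 lists, queens included, and had a median of 36.1. For the 8 other pairs lacking at least 100 regions, the median of the lowest percentile over the 4 lists with a call lay between 5.94 and 12.7. In 163 regions (43.2%) at least 1 worker list ranked the region below its 10th percentile. At least 1 worker list ranked it above its 50th in 236 regions (62.6%), and all 4 lists did so in 14 regions (3.71%). The weakest call came from queen-less workers 1 and 2 at 113 and 91 regions, against 69 and 104 regions for queen-right workers 1 and 2, so no single list supplied it.

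**Figure D3:**
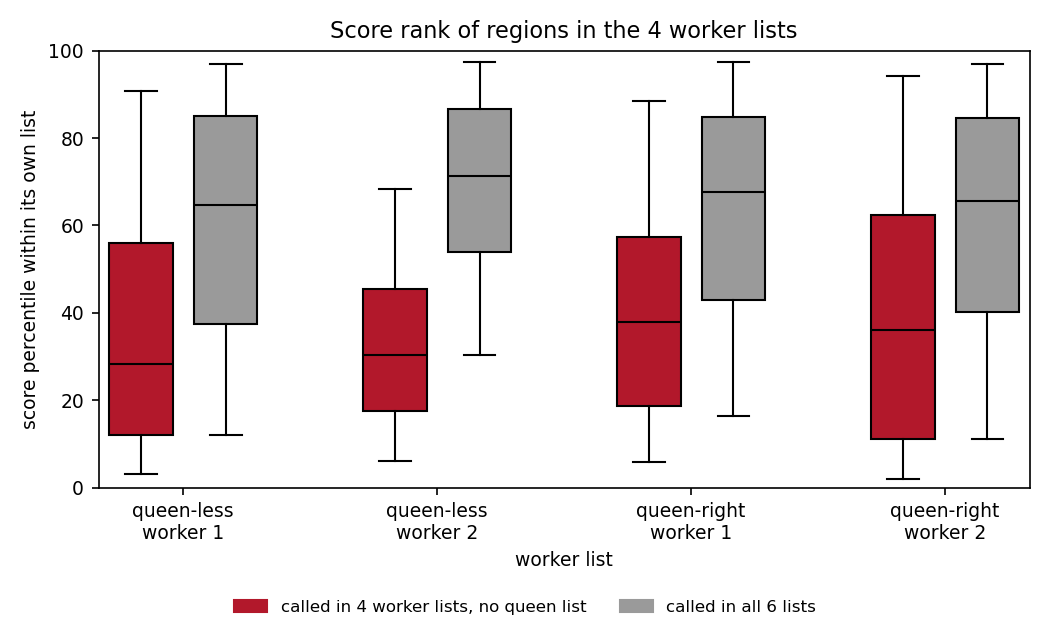
Score percentile within its own list (y axis) in the 4 worker lists (x axis) for regions called in all worker and no queen lists (red) and for regions called in all 6 lists (grey). Boxes span the quartiles with the median as a line, and whiskers run from the 5th to the 95th percentile of regions. The red medians are 28.4 to 38.0 and the grey medians 64.7 to 71.4.

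A few regions were ranked high by every worker list. The region on NW_003378157.1 from 158032 to 158459 (428 bases) had scores of 34 and 102 in queen-less workers 1 and 2, against 47 and 36 in queen-right workers 1 and 2, at percentiles of at least 72.1. The region on NW_003378145.1 from 822618 to 823077 (460 bases) had scores of 32 and 100 in the queen-less workers, against 48 and 36 in the queen-right workers, at percentiles of at least 70.7. Both lay close to a queen peak, at gaps of 709 and 695 bases. The third, on NW_003377971.1 from 39771 to 40044 (274 bases), stood farther off, with 6503 bases to the nearest queen peak. Its scores were 60 and 107 in the queen-less workers, against 43 and 60 in the queen-right workers, which placed it at the 99.8th percentile of queen-less worker 1 and the 98.3rd of queen-right worker 2.

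The next of these were the regions on NW_003377930.1 from 190189 to 191087 and on NW_003377892.1 from 503587 to 503968. The first had scores of 27 and 117 in the queen-less workers, against 49 and 43 in the queen-right workers. The second had scores of 41 and 85 in the queen-less workers, against 59 and 61 in the queen-right workers, and lay 8384 bases from a queen peak. Further regions of this rank were found on NW_003377889.1 from 42574 to 42876, NW_003378106.1 from 1488 to 2415, NW_003378199.1 from 85382 to 85611, NW_003377861.1 from 79714 to 80782 and NW_003377891.1 from 174080 to 175218. Over these 10 regions the lowest percentile ran from 56.3 to 72.1 and the gap to a queen peak from 695 to 13065 bases, the largest being that on NW_003378106.1. These 10 were ordered by the same calls that chose the set.

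The 2 worker groups were compared within the regions, since the rule treats the 4 worker lists alike. The score percentile was the 1 of 3 measures in which the groups did not overlap. Its medians of 28.4 and 30.4 in the queen-less workers lay below those of 38.0 and 36.1 in the queen-right workers, with means of 29.4 ± 1.44 and 37.1 ± 1.35 (SD, n = 2 each). Queen-less minus queen-right workers gave -7.66 percentile points, larger than the pooled replicate SD of 1.39 (exact two-sided permutation p = 0.333, the lowest value possible with 2 samples a group). A design of this size cannot fall below 0.05. Over regions called in all 6 lists the difference was 1.35 points, within a pooled SD of 3.49 (exact permutation p = 1). The worker groups overlapped in this measure with a minimum score of 20 (-5.83 points) and where a call needed 50% or more of the region (-7.03 points, exact permutation p = 0.667 each). The value for the worker-not-queen regions became 1.76 points when lists were reduced to equal covered bases, where 181 regions met the rule and only 15 of the 377 were found again.

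Region by region, the score percentile was higher in both queen-less workers than in both queen-right workers at 54 of the 377 regions (14.3%), against 24.3% of all regions called in the 4 worker lists. It was lower in both queen-less workers at 81 regions (21.5%), against 17.3%. These shares are given as a description, as regions are not replicates. Across the 377 regions the percentiles of 2 lists were weakly related, with Spearman coefficients of 0.309 between the queen-less workers, 0.426 between the queen-right workers and 0.239 to 0.311 over the 4 pairs of a queen-less with a queen-right worker. These points share the genome and the rule that set a floor on every list. Over the regions called in all 6 lists the coefficients were 0.485 between the queen-less workers and 0.568 between the queen-right workers. The 4 pairs across the groups gave 0.266 to 0.537 there. For queen-less worker 1 with queen-right worker 2 the coefficient was higher in the 377 regions, at 0.289 against 0.266.

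Coverage and peak width did not separate the worker groups. Peaks covered 54.9% and 66.2% of the bases of the regions in queen-less workers 1 and 2, against 68.5% and 50.2% in queen-right workers 1 and 2. The means were 60.5% ± 8.02 and 59.4% ± 12.9 (SD, n = 2 each), and the difference of 1.19 percentage points was smaller than the pooled SD of 10.8 (exact permutation p = 1). The median peak width in the regions was 261 and 309 bases in the queen-less workers, against 327.5 and 252.5 bases in the queen-right workers, a difference of -5 bases (exact permutation p = 1). With 1 worker list left out the coverage difference was 6.86 and -4.49 points without queen-less workers 1 and 2, against 10.3 and -7.95 points without queen-right workers 1 and 2, and it was -9.34 points at equal covered bases. In both measures the groups overlapped, and the queen-right worker with more covered bases in its whole list also had the wider peaks here. The same held for the queen-less workers.

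Fewer than 50% of the regions lay within 1 kb of a queen peak. The gap from a region to the nearest queen peak on its scaffold ran from 89 to 45554 bases, with a median of 1228 and quartiles of 814 and 2256 bases. There were 150 regions (39.8%, 95% Wilson interval 35.0 to 44.8%, which covers counting error only) within 1 kb of a queen peak, 192 between 1 and 5 kb and 31 at 5 kb or more. A further 4 lay on scaffolds without any queen peak. The 8 other pairs that lacked at least 100 regions had between 23.3% and 44.0% of them within 1 kb of their own peaks. Without queen 1 the share was 30.8%, over regions that queen 2 lacked.

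Few regions lay at the inner edge of the rule: the 5th percentile of the gap to a queen peak was 595 bases. This was not particular to queens. For regions lacked by both queen-right workers, the 5th percentile of the gap to a queen-right peak was 645 bases. The cause was not tested. The region nearest to a queen peak, on NW_003378158.1 from 131999 to 133419, was 89 bases from a peak of queen 2 and 535 bases from a peak of queen 1. The next 4 in order, on NW_003378147.1 from 120267 to 120971, NW_003377866.1 from 241515 to 242017, NW_003378096.1 from 864942 to 865713 and NW_003377999.1 from 1189887 to 1190572, had gaps of 254 to 348 bases. Outside the rule, the regions of all 4 workers with the least queen sequence had as many bases under a queen peak as the extension length named in the lists. Examples were NW_003377851.1 from 295313 to 296655, called in queen 2 with a score of 25, and NW_003377851.1 from 457617 to 458481 and NW_003377859.1 from 657476 to 657839, called in queen 1 with scores of 26 and 24.

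The 5 most isolated regions differed widely in rank. The region farthest from a queen peak, on NW_003378242.1 from 95883 to 96102, stood 45554 bases away and had scores of 21 and 36 in the queen-less workers, against 51 and 24 in the queen-right workers. Its percentile was 16.5 in queen-less worker 2, against 81.4 in queen-right worker 1. The others were on NW_003377999.1 from 1760435 to 1761174 (39921 bases), NW_003378241.1 from 43487 to 44449 (29137 bases), NW_003377848.1 from 2721 to 2998 (26532 bases) and NW_003377965.1 from 6403 to 6619 (19432 bases). At 3 of these 4 the lowest percentile was between 1.43 and 4.04, and at the last it was 35.8. Among the 4 regions on scaffolds without a queen peak, that on NW_003378995.1 from 235 to 1157 ranked highest, with scores of 26 and 129 in the queen-less workers, against 31 and 47 in the queen-right workers. These 4 scaffolds spanned only 0.000997 to 0.00584 Mb and held 1 or 2 merged regions each, so they had little room for a queen peak. For the other pairs of lists, 0 to 60 regions lay on scaffolds without a peak of the pair.

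The sequence beside the regions was covered less than the scaffold spans in all 6 lists, which is in part built in. Within 5 kb on each side, peaks covered 15.3% and 22.0% of bases in the queen-less workers, 21.9% and 15.1% in the queen-right workers, and 15.8% and 13.1% in queens. The span of a scaffold runs to the end of its last peak in any list, and scaffolds without a peak are not counted. Over this span of 220.2 Mb the lists covered 26.9% and 35.4% in the queen-less workers and 29.4% and 22.2% in the queen-right workers. In queens they covered 28.6% and 24.3%. The ratio of the first to the second was 0.568 and 0.622 in the queen-less workers, 0.745 and 0.681 in the queen-right workers, and 0.552 and 0.539 in queens. Queens had the lowest ratios and queen-right workers the highest. Flanks adjoin regions that were chosen for the lack of queen peaks, so this order was not tested. Every region also ends where no list has a peak, which lowers flank coverage in all lists. Flanks of other regions are not given for comparison.

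**Figure D4:**
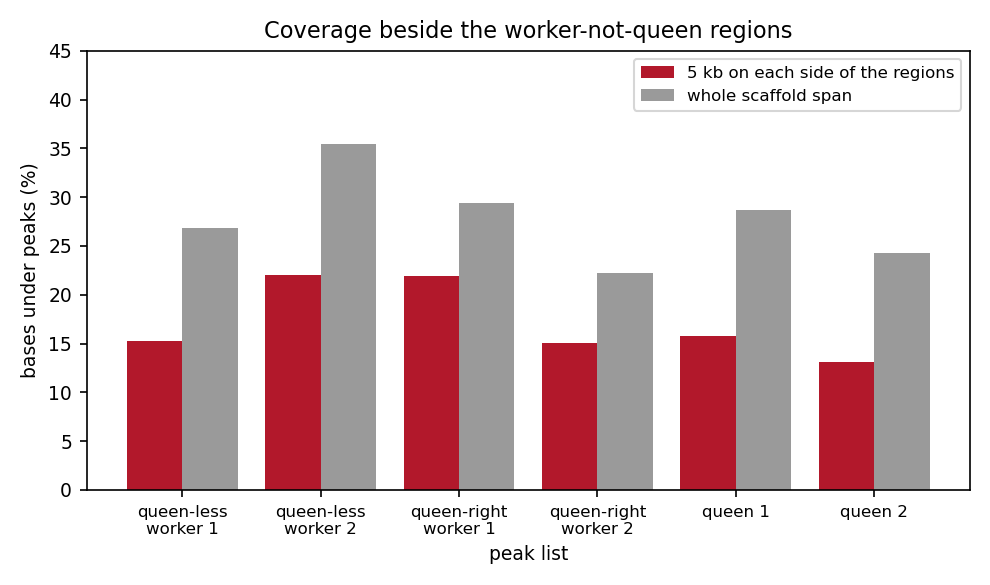
Bases under peaks (y axis, percent) in each of the 6 lists (x axis). Red bars are for 5 kb on each side of the 377 regions. Grey bars are for the scaffolds up to their last peak. Red bars are lower than grey bars in all 6 lists, at 13.1% to 22.0% against 22.2% to 35.4%. Regions end only where no list has a peak, which lowers the red bars.

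The regions were spread over 168 of the 1834 scaffolds that had a peak in any list. Of these, 74 scaffolds held 1 region, 43 held 2 and 51 held 3 or more. The density was 1.71 regions per Mb of span. Scaffolds with a span of at least 1 Mb held 151 of the regions (40.1%), against 50.3% of all merged regions. The set thus leaned to scaffolds of shorter span. Of 739 adjacent regions, 329 (44.5%) were called in all 6 lists, against 46.4% of all regions, and 70.0% had a queen call, against 75.9% of all regions. Runs of adjacent worker-not-queen regions were few. There were 9 such runs with 19 regions in all, and the longest held 3, on NW_003378135.1 from 343896 to 344117, from 345912 to 346178 and from 347248 to 347442.

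The largest numbers were on NW_003378088.1 (10 of its 1120 regions, 0.893%), NW_003378096.1 (8 of 593, 1.35%) and NW_003377860.1 (7 of 236, 2.97%), the first of which is close to the 0.704% over all scaffolds. On 2 shorter scaffolds, picked after their values were seen, 7 regions also fell: 5.93% of the 118 regions on NW_003378186.1 and 10.8% of the 65 regions on NW_003378239.1. The share was as high on NW_003377886.1 (4 of 37, 10.8%) and higher on some scaffolds with few regions, such as NW_003378457.1 (1 of 6, 16.7%). On NW_003378239.1 the 7 regions lay within 89.0 kb, in a group of 3 from 118829 to 122514 and a group of 4 from 190376 to 207810. In that window the queen-less workers had 26 and 30 peaks and the queen-right workers 34 and 31, while the queens had 17 and 19. Peaks covered 9.70 and 10.8 kb in the queen-less workers, 18.2 and 11.6 kb in the queen-right workers, and 6.20 and 7.65 kb in queens. The window was picked for regions that the rule requires to lack queen peaks, so the lower queen values in it are a description. Of the 34 merged regions in the window, 15 were called in all 6 lists. The widest of the 7, from 199904 to 201029, had scores of 14 and 76 in the queen-less workers, against 43 and 42 in the queen-right workers.

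**Figure D5:**
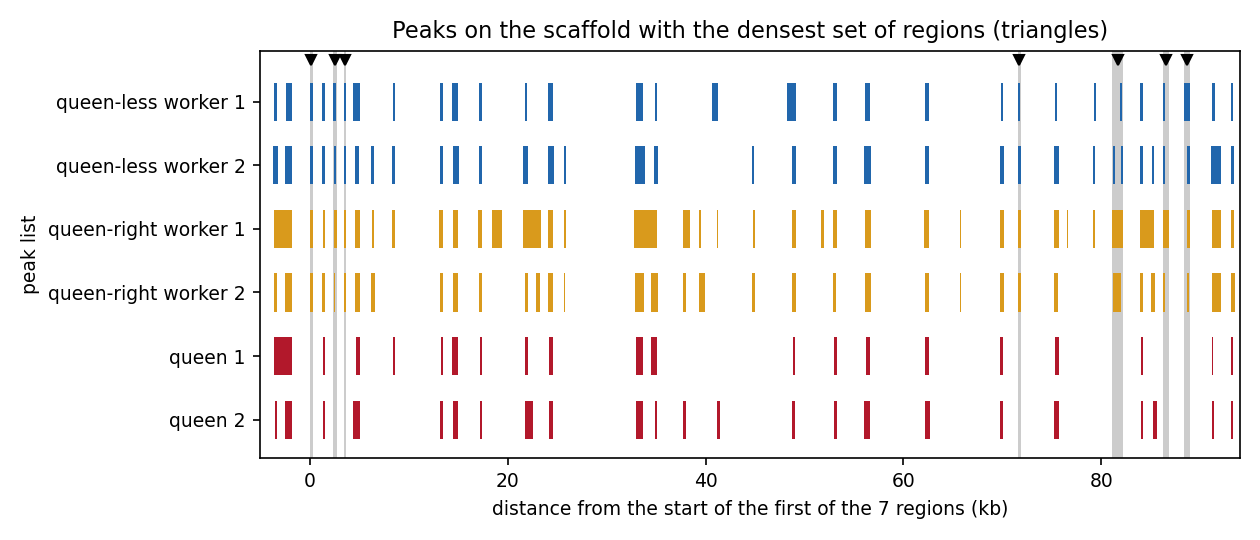
Peaks of the 6 lists (rows, queen-less workers in blue, queen-right workers in gold, queens in red) on scaffold NW_003378239.1 by distance from the start of the first worker-not-queen region (x axis, kb). Grey bands and triangles mark the 7 regions, where all 4 worker rows have a peak and both queen rows have none.

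Counted by base in place of region, most sequence marked in workers alone lay inside regions that queens shared. In all, 0.757 Mb lay under peaks of all 4 worker lists and of neither queen list, and the queens were again the fifth highest of the 15 pairs, behind the 2 queen-right workers (2.86 Mb). Of this sequence, 84.4% was in regions called in all 6 lists, as 7068 stretches with a median length of 24 bases. Those regions made up 80.8% of the bases in all merged regions, so the share is near that of their size. Where the 7068 stretches lay relative to the queen peaks of these regions was not tested. The worker-not-queen regions held 9.05% of the 0.757 Mb, as 357 stretches with a median of 159 bases, and regions called in 1 queen held 6.50%.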

How the data were processed

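The deposited files are 6 lists of broad H3K27me3 peaks, 1 for each ChIP sample, that give the position and score of every peak. The submitters' processing notes name Bowtie 1.0, SAMtools 1.5, MACS2 and bedtools, and the peak names name a broad calling threshold (0.1) and the read extension (147 bases). The score of the deposited lists, of 10 or more, has no named unit. The genome build, the read filters and whether the 3 input samples entered the peak calls are not given in the sources used here, though the study's methods name a fold enrichment over input for a gene cluster. The inputs were not analysed. The read depth of the libraries is unknown, so no interval on a peak call is given.

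The regions, the groups and the comparisons were chosen with earlier results of these data known. Queens 1 and 2 are numbered as in the labels, while the peak names of their lists carry the numbers 2 and 3, and each list was tied to its queen by the sample record that holds it. Positions count from 1. The regions named were those with the highest lowest percentile (10), the widest, the farthest from and the nearest to a queen peak (5 each), the 3 scaffolds with most regions and the longest run of neighbours. Queen-less and queen-right workers were compared by exact two-sided permutation of samples. Merging, calling and gaps were tested on simulated data. The alternatives tried were equal covered bases, equal list lengths, a score of at least 20, peaks covering 50% of a region, joining of peaks closer than 1 kb, a clearance of 1 kb, leaving out each sample, and a replicate block. The crossed block and the placing of the counted bases among regions were added after the data were examined. Calculations ran in Python 3.11.15 with SciPy 1.17.1 and NumPy 2.4.6, and plots were drawn with matplotlib 3.10.9.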

Additional observations from a re-analysis of the deposited data

How the results depend on the processing

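The count of 377 regions was 226 with a minimum score of 20, 181 at equal covered bases, 203 with peaks closer than 1 kb joined and 227 with no queen peak within 1 kb. It was 426 at equal list lengths and 504 where a call needed peaks over 50% or more of the region, and 461 to 1388 with a sample left out. Under these 6 settings the queens ranked 5 to 7 of the 15 pairs, but the pairs above them changed: the highest was queen-less worker 2 with queen-right worker 1 at equal covered bases (1772), queen-less worker 1 with queen-right worker 2 at a minimum score of 20 (1348) and the queen-right workers in the other 4. The number of the 377 regions found again was 117, 15, 186 and 227 in the first 4 and 330 and 148 in the other 2. At equal covered bases queen-less worker 2 kept 18270 peaks and queen-right worker 2 kept 50922.

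The share of regions within 1 kb of a queen peak was 34.5% with a minimum score of 20, 80.4% where a call needed 50% or more of the region, which lets a region hold a queen peak, and 0% by construction with peaks closer than 1 kb joined. It was 30.8% to 39.9% with a sample left out.

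Queen-less minus queen-right workers in score percentile became -5.83 points with a minimum score of 20 and 1.76 points at equal covered bases, and lay between -8.68 and -6.65 with a worker sample left out. The cause was not tested. The difference in coverage ran from -9.34 to 10.3 percentage points and that in peak width from -42.5 to 32.5 bases over the settings, so neither kept its sign.

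The groups share replicate numbers in the labels. With the replicate block the values were -7.66 points, 1.19 percentage points and -5 bases (smallest possible permutation p 0.5), which are those without it by construction, since a block cannot move the difference of means with 2 pairs. Deviations of same-numbered workers over 1 kb bins correlated at -0.152, and crossing the numbers gives the same 3 values, also by construction.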
